A study of Mus musculus with 3 samples.

Results

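Among the sites that H2A.Z WT occupied in mouse embryonic stem cells (ESCs), a group of promoter regions also carried H3K27me3 and showed no enrichment for the acidic patch mutant H2A.Z AP3. These regions were chosen by their measured overlaps. A member is an enriched region of the H2A.Z WT library whose midpoint lies within 2 kb of the start of a protein-coding transcript, which overlaps an H3K27me3 region by at least 1 bp and which overlaps no H2A.Z AP3 region. There were 2793 members among 18957 promoter regions of H2A.Z WT, which is 14.7%, and among 78359 H2A.Z WT regions in all. They were assigned by nearest start to 2036 of 22342 protein-coding genes, which is 9.11%. Both percentages are set by the rule and are given as the background for the counts that follow. The overlaps with H3K27me3 and with H2A.Z AP3 at the main threshold are therefore descriptions and not findings.

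ChIP-Seq was used to ask where wild-type and mutant H2A.Z are found in ESCs. There were 3 libraries, 1 per group. In the group labelled H2AZ_WT, cells expressed wild-type H2A.Z fused at its C-terminus to yellow fluorescent protein (YFP). In the group labelled H2AZ-AP3, cells expressed the same fusion with the substitutions G92N, D97N and S98K, which put residues of the canonical histone H2A into the acidic patch. Both transgenes were delivered by virus into KH2 ESCs and induced with 1 µg/ml doxycycline. The cells were sorted for YFP, and hairpins directed at the 3′ untranslated region of the endogenous H2A.Z transcript were introduced into these lines. Both libraries were immunoprecipitated with an anti-GFP antibody, so they report the tagged protein only. The third library, labelled WT in genotype, was immunoprecipitated with an antibody against H3K27me3. All 3 labels give the strain as V6.5, an ESC line from a 129SvJae by C57BL/6 cross, whereas the protocol names KH2 cells for the transgenic lines. By these labels, the H3K27me3 library did not come from cells that expressed H2A.Z AP3. The paper also measured the mark in such cells by ChIP and PCR and reports it reduced at genes it calls bivalent.

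H2A.Z is a variant of histone H2A that chromatin remodellers place into nucleosomes flanking transcription start sites, and its acidic patch is a surface of the nucleosome to which other proteins and neighbouring nucleosomes bind. H3K27me3 is the trimethylation of histone H3 at lysine 27 that Polycomb repressive complex 2 lays down. In ESCs it covers the CpG-rich promoters of many developmental regulators, which are held at low expression until differentiation, and many of these promoters also carry the activating mark H3K4me3.

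The files hold the coordinates of enriched regions, on assembly mm9, without any height or read count. The sequencing depth of each library is unknown. A region missing from the H2A.Z AP3 list may have had less of the mutant protein or too few reads to pass the threshold, and these cannot be told apart. The H2A.Z AP3 list held 14599 regions and the H3K27me3 list 16970.

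The sequences of 6 members are printed to show how different in base composition the chosen promoters were. They come from 330 members of 150 to 300 bp that touched no annotated exon, and are the leading pair by most CpG dinucleotides per 100 bp, by fewest, and by most among homeobox genes. The lower limit of 150 bp was set after the files were examined. All are printed 5′ to 3′ on the plus strand of mm9 with each CpG in capitals.
Bicc1, chr10:70622651-70622825: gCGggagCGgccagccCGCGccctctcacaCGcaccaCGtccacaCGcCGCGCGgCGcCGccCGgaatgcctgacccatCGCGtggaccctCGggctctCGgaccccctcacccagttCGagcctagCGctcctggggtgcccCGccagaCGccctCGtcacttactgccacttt
Ssbp2, chr13:91601626-91601850: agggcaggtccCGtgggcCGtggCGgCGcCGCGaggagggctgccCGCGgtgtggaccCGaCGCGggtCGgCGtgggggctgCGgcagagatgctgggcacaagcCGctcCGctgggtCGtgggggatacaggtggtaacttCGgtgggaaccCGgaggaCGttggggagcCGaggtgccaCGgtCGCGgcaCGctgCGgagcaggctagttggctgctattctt
Rspo4, chr2:151669476-151669675: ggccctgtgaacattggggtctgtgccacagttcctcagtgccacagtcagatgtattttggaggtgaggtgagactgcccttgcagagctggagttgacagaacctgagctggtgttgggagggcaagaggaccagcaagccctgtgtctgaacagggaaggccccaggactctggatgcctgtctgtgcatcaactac
Slc6a3, chr13:73675151-73675375: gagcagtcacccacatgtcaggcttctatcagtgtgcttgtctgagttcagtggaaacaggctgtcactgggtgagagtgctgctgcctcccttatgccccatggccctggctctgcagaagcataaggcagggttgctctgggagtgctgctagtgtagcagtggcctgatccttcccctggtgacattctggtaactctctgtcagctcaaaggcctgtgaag
Pitx3, chr19:46223076-46223350: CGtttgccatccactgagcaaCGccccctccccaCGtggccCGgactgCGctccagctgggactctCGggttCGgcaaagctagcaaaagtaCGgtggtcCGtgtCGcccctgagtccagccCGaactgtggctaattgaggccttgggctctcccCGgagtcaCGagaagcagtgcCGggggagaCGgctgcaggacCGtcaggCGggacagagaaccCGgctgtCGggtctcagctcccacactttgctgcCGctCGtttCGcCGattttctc
Nkx1-1, chr5:33777876-33778175: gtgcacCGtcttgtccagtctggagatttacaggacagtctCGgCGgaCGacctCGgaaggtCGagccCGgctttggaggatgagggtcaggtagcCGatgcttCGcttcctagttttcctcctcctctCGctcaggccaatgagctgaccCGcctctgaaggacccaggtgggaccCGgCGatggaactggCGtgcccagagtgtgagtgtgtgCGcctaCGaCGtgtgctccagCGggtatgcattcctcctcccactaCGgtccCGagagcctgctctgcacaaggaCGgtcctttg

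The member upstream of Bicc1, which encodes an RNA-binding protein, held 22 CpG in 175 bp, or 12.6 per 100 bp. Its midpoint lay 290.5 bp upstream of the start, outside annotated exons and protein-coding transcripts. The member in an intron of Ssbp2, a gene for a single-stranded DNA-binding protein, held 11.6 per 100 bp. At the other end, the intronic members of Rspo4, a secreted activator of Wnt signalling, and of Slc6a3, the dopamine transporter gene, held no CpG at all in 200 and 225 bp. Among homeobox genes, the members before the starts of Pitx3 and Nkx1-1 held 8.36 and 7.00 per 100 bp. The printed regions were picked for their extremes and do not stand for the whole: the median was 4.00 per 100 bp over the 330 eligible members and 5.71 over all members.

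Base composition was also measured in a fixed window of 500 bp around the midpoint, the same for regions of any length. The values still differed by region length, as given below. Members had a median of 6.0 CpG per 100 bp with quartiles of 4.0 and 7.8. Promoter regions with both H3K27me3 and H2A.Z AP3 had a median of 6.8, those with H2A.Z AP3 but no H3K27me3 had 6.0, and those with H2A.Z WT only had 5.2. The window met a usual criterion of a CpG island, a GC content of at least 50% and a ratio of observed to expected CpG of at least 0.6, for 57.3% of members (95% Wilson interval 55.4 to 59.1). The share was 68.8% (66.1 to 71.4) where H2A.Z AP3 was also found, and 50.1% (49.2 to 51.0) at regions with H2A.Z WT only. At matched length the gap between members and regions with the mutant differed by length class. Among regions of 225 to 400 bp the shares were 52.0% for members, 66.0% with the mutant and 53.2% for WT-only regions. At 425 to 800 bp they were 61.7%, 66.8% and 56.9%, and at 825 to 1600 bp 69.9%, 70.6% and 56.0%. Members thus lay between the other classes over all lengths and in the longer classes, but not among the short regions, where they were beside WT-only regions. All intervals here treat regions as independent and cover counting error only, and with 1 library per group no test between the groups could be made.

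Members were intermediate in length. Their median length was 550 bp, with quartiles of 275 and 900 bp and a range from 25 to 3325 bp, and together they covered 1.81 Mb. H3K27me3 regions with the mutant had a median of 950 bp, and H2A.Z WT-only regions one of 300 bp. The same order held on all 20 chromosomes. Regions with the mutant but no H3K27me3 had the same median as members, 550 bp.

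**Figure D1:**
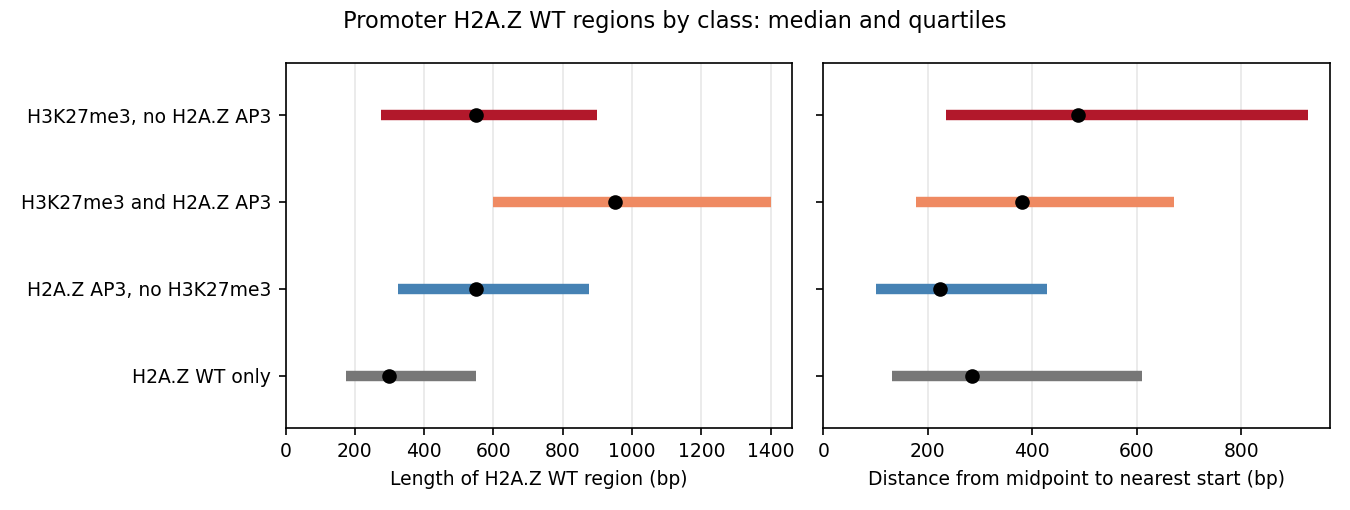
Length of promoter H2A.Z WT regions in bp (left) and distance of their midpoints from the nearest transcript start in bp (right), by class. Points are medians and bars run from the lower to the upper quartile over regions; members (top row) had a median length of 550 bp and a median distance of 488 bp.

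Length was closely tied to whether the mutant was found. Of 3970 promoter regions with H3K27me3, 70.4% (68.9 to 71.8) overlapped no H2A.Z AP3 region. This share was 97.9% among regions of 25 to 100 bp, 95.3% at 125 to 200 bp, 85.3% at 225 to 400 bp, 71.0% at 425 to 800 bp, 59.4% at 825 to 1600 bp and 36.4% above that. Among promoter regions without H3K27me3 the share also fell with length, at 96.5%, 91.8%, 83.9%, 74.4%, 61.0% and 48.9%. It lay below the share with H3K27me3 up to 400 bp and above it in the longer classes. The intervals of both series overlapped in all 6 length classes, which does not show that the shares were equal. They barely met in the longest, at 31.4 to 41.8 with H3K27me3 and 41.7 to 56.1 without it. The same was so at 125 to 200 bp, with 92.6 to 97.1 and 90.7 to 92.8. At 425 to 800 bp they were 68.4 to 73.5 and 73.1 to 75.7. A longer region also has more room to meet another list by position alone. How far length stands for the strength of enrichment was not tested.

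**Figure D2:**
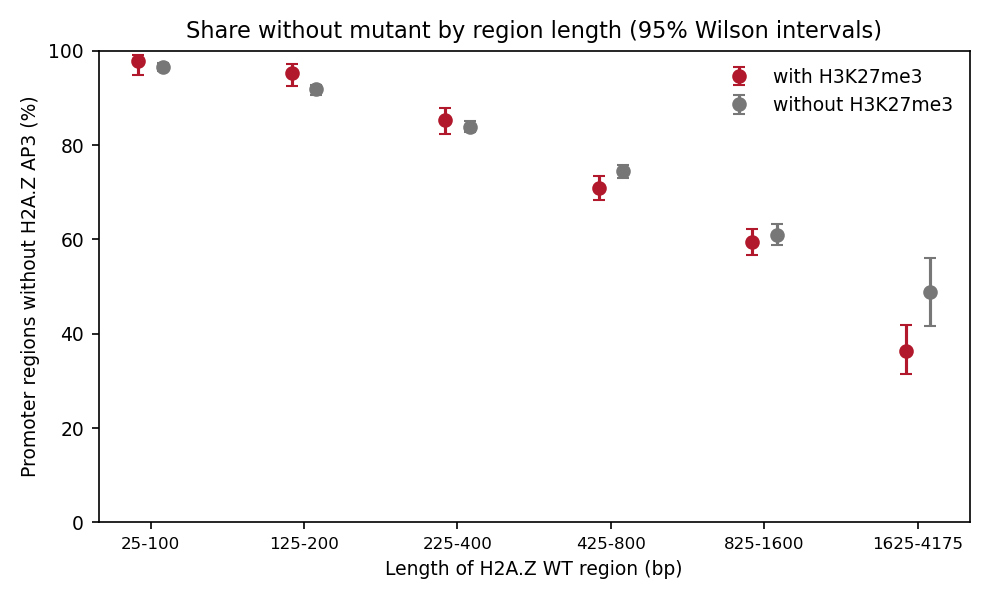
Percent of promoter H2A.Z WT regions that overlapped no H2A.Z AP3 region, by length of the H2A.Z WT region in bp, with H3K27me3 (red; these are the members) and without it (grey). Error bars are 95% Wilson intervals over regions; both series fall from over 96% in the shortest class to under 50% in the longest.

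Relative to transcript starts, members sat further out and further into the gene than most H2A.Z. Their midpoints were at a median distance of 488 bp from the nearest start, against 379.5 bp for H3K27me3 regions with the mutant and 284 bp for H2A.Z WT-only regions. The distance was greater than that of WT-only regions on 20 of 20 chromosomes. For 67.9% of members (66.1 to 69.6) the midpoint lay downstream of the start. The share was 75.3% (72.7 to 77.7) with the mutant and 64.0% (63.1 to 64.8) for WT-only regions. At a length of 825 to 1600 bp the downstream shares of the H3K27me3 classes were 77.8% without and 75.6% with the mutant, while the median distances were 412 and 352 bp. The difference in direction was thus not seen among long regions, whereas that in distance was. By annotation, 39.8% of member midpoints fell in exons of any gene, 38.7% in introns of protein-coding transcripts and 21.4% in neither.

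Piled up on their starts, members covered a broad zone with its highest point 275 bp downstream, where 41.9% of them lay. At the start itself 31.9% of members were present, at 1000 bp downstream 17.9%, and at 1000 bp upstream 6.45%. WT-only regions reached a similar height, 43.5%, but 125 bp downstream, and only 4.50% of them remained at 1000 bp. Regions with both H3K27me3 and the mutant had their highest point at 300 bp, close to that of members, at 69.2%. The shift into the gene was thus shared by both H3K27me3 classes.

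**Figure D3:**
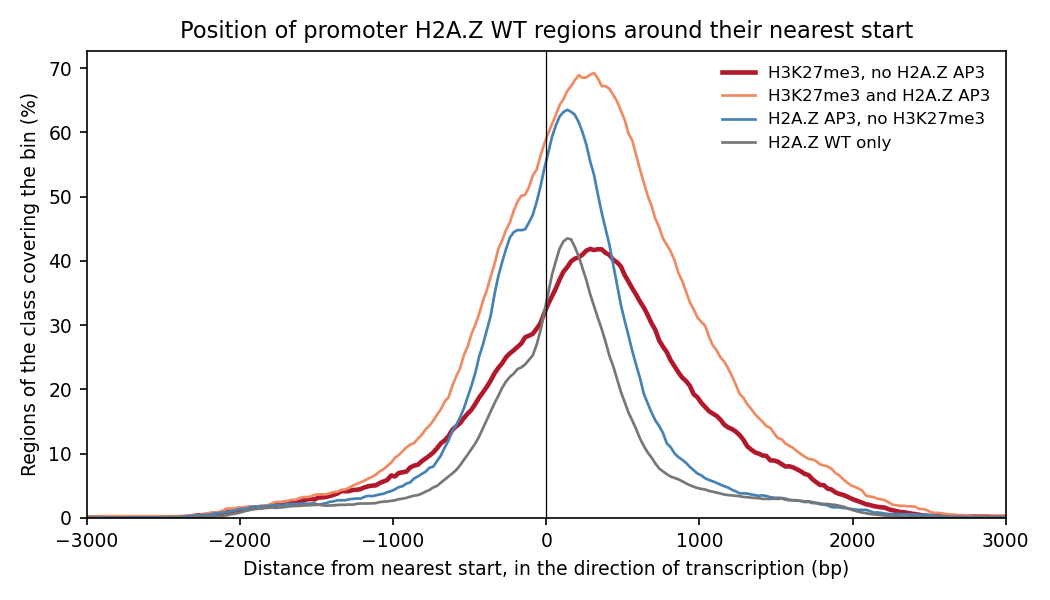
Percent of the promoter H2A.Z WT regions in each class that cover a 25-bp bin, by distance of the bin from the nearest start in bp, counted in the direction of transcription. Members (thick red) peak at 41.9% at 275 bp downstream and keep 17.9% at 1000 bp, where WT-only regions (grey) keep 4.50%.

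Where the position was upstream, the mutant was missing more often. Among H3K27me3 promoter regions with an upstream midpoint 75.5% (73.0 to 77.9) were members, and with a downstream midpoint 68.2% (66.4 to 69.9). The lowest share, 63.5% (61.0 to 65.9), was found within the first 500 bp downstream. The upstream regions were also shorter, with a median of 525 bp against 725 bp. At matched length, 59.1% of members and 66.0% of H3K27me3 regions with the mutant lay downstream at 225 to 400 bp, and 69.4% and 74.9% did at 425 to 800 bp, while at 825 to 1600 bp the order was the opposite, as given above.

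Members commonly had another H2A.Z WT region, of any class, close by. Another H2A.Z WT region lay within 1 kb of 65.1% of members (63.3 to 66.8), against 49.0% (46.2 to 51.9) of H3K27me3 regions with the mutant and 41.6% (40.8 to 42.5) of WT-only regions. Short regions have neighbours more often, but the order remained among regions of 425 to 800 bp, at 65.9%, 58.9% and 35.7%. At 825 to 1600 bp members and H3K27me3 regions with the mutant were close, at 45.6% and 42.5%, against 26.1% of WT-only regions. Counting all H2A.Z WT regions within 2 kb of the midpoint, members had a median of 1063 bp of enriched sequence around them, H3K27me3 regions with the mutant 1275 bp, and WT-only regions 550 bp.

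The H3K27me3 that defines members was not a marginal overlap in most cases. H3K27me3 covered 61.0% of member bases, and the median overlap was 275 bp with quartiles of 150 and 550 bp. Of the members, 35.2% lay wholly inside an H3K27me3 region, 15.2% held H3K27me3 within themselves and 49.6% crossed an edge. For regions with the mutant these shares were 16.8%, 20.5% and 62.7%. The surrounding mark was of similar extent in both classes. The longest H3K27me3 region touched had a median of 900 bp at members and 925 bp with the mutant, and the H3K27me3 within 2 kb had medians of 1662 and 1550 bp. Among regions of 225 to 400 bp, however, the latter values were 1775 bp at members and 1387 bp with the mutant. By length of the H3K27me3 region, the share without the mutant ran from 68.9% to 73.4% over 4 length classes with overlapping intervals. Seen from the mark, 2895 of 16970 H3K27me3 regions touched a member, or 17.1%. These had a median length of 725 bp, and all other H3K27me3 regions one of 200 bp. Of these 2895, 5.49% had H2A.Z AP3 elsewhere within them. The rule lowers this share, because each of them touches a region without H2A.Z AP3. No share of other H3K27me3 regions was set beside it.

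Values at the limits of the rule were as follows. The overlap with H3K27me3 was 25 bp, the smallest the bins allow, for 169 members, such as those of Tspan9 and Osm, and 52 WT-only regions touched an H3K27me3 region without overlap. Members of Zbtb16 and 4930447C04Rik abutted a mutant region at a gap of 0 bp, and 104 regions fell outside by 25 bp of mutant overlap, among them those of Gm5069 and Fam155a. At the promoter limit, a member of Otp lay 1993.5 bp upstream of its start, and regions of Pax9 and Tlx1 lay outside at 2003 bp. The nearest H2A.Z AP3 region was a median of 23880 bp away from members. It lay within 1 kb of 14.8% of members (13.5 to 16.1) and of 11.0% of WT-only regions (10.5 to 11.6).

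The rule did not use the lists at the stricter threshold of 1e-12, which gave a further look at the same libraries. An overlapping region of the strict H2A.Z WT list was present for 90.3% of members (89.2 to 91.4), beside 87.0% of all promoter regions, 82.5% of WT-only regions and 99.3% of H3K27me3 regions with the mutant. The shares rose with length. For regions of 400 bp or more they were 99.2% for members, 98.5% for WT-only regions and 99.9% with the mutant, while in the class of 25 to 100 bp only 7.85% of members were held. H3K27me3 also met the strict threshold at 84.1% of members, against 85.5% of those with the mutant.

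The strict lists were not subsets of the main lists. Of the strict regions of H2A.Z AP3, 2529 or 23.4% overlapped no region of its main list, compared with 8.05% for H2A.Z WT and 3.24% for H3K27me3. As a result, 159 members, or 5.69% (4.89 to 6.61), overlapped a strict H2A.Z AP3 region although they overlapped none at the main threshold. The background over all 14894 promoter regions without the mutant was 4.10%. Among members of 225 to 400 bp the share was 1.95% and among those of 825 to 1600 bp 10.8%, close to 2.10% and 11.9% of WT-only regions. These 159 members had a median length of 1000 bp and a median of 125 bp under strict mutant regions. In the member of Htra4, a serine protease gene, the strict mutant region covered all 1325 bp. In those of Ccdc48 and Gpr84 it covered 1225 of 2575 bp and 1150 of 1175 bp. The absence of H2A.Z AP3 from these 159 members therefore holds for the main list alone.

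Chromosomes 6 and 8 stood apart over the whole H2A.Z AP3 list, which held 2141 and 2002 of its 14599 regions there and at most 991 on any other chromosome. Of their H3K27me3 promoter regions only 41.9% (37.5 to 46.4) were free of H2A.Z AP3, 39.4% on chromosome 6 and 45.2% on chromosome 8. On the other 17 autosomes together the share was 74.0% (72.5 to 75.4), with a range from 64.0% to 78.8% by chromosome. On the X chromosome it was 90.3% (75.1 to 96.7) of 31 regions. H3K27me3 promoter regions were also longer on chromosomes 6 and 8, with a median of 900 bp on each against 575 to 762 bp on the other autosomes. The gap remained at matched length, with 45.5% (36.6 to 54.8) against 73.6% (70.9 to 76.2) among regions of 425 to 800 bp. It was not limited to H3K27me3, because promoter regions without the mark were free of the mutant in 64.9% of cases (62.8 to 67.0) on chromosomes 6 and 8 and in 83.0% (82.3 to 83.6) on the other autosomes. The pair held 196 members, 7.02% of all.

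**Figure D4:**
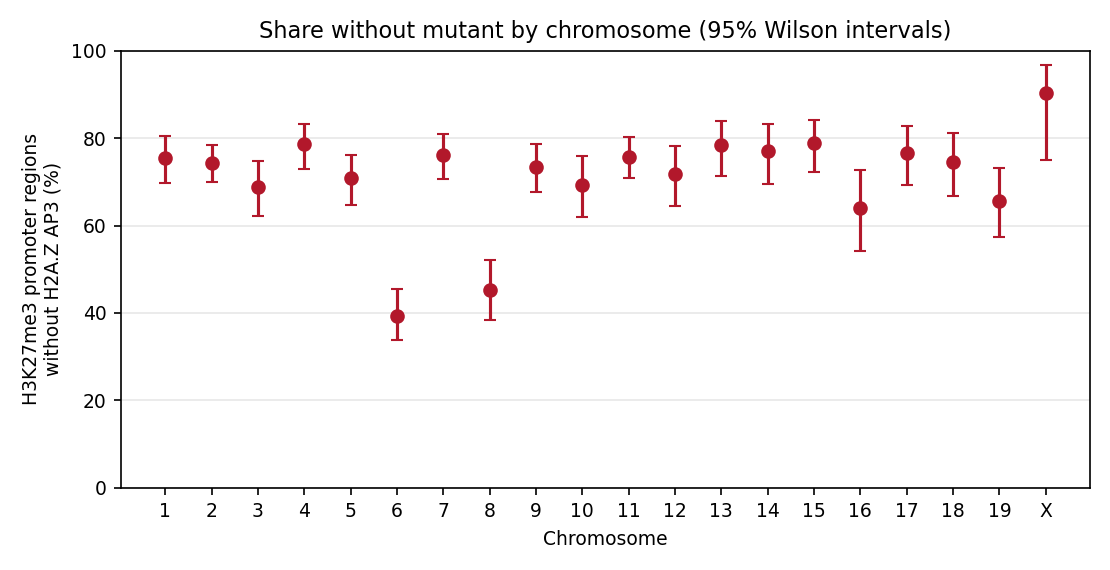
Percent of promoter H2A.Z WT regions with H3K27me3 that overlapped no H2A.Z AP3 region, by chromosome, with 95% Wilson intervals over regions. Chromosomes 6 and 8 sit at 39.4% and 45.2%, while the other autosomes run from 64.0% to 78.8%.

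Gene by gene, most promoters held a single member. Of the 2036 genes, 1439 had 1 member, 480 had 2 and 89 had 3. For 507 genes (24.9%) another promoter region assigned to the same gene overlapped H2A.Z AP3. That region could lie at another annotated start of the gene. At the other 1529 genes no promoter region overlapped H2A.Z AP3. Such genes are called free of the mutant below, which refers to the main list alone and does not show absence. Some of them, such as Onecut1, Foxd2 and Pax1, had a member that overlapped a strict mutant region, and the shares were not corrected for this. These 1529 were 55.1% of the 2776 genes with any H3K27me3 promoter region, which is the background for the counts by gene family below. Families were taken from lists of gene symbols and counted by gene identifier, without a test. Some symbols have more than 1 identifier, so the gene totals can exceed the symbols. The Hox list had 40 identifiers for 39 symbols, and the other homeobox list 117 for 114. Since H3K27me3 chose the members, a high share of developmental genes follows from the mark and is not evidence about H2A.Z AP3. The shares set against the genes with the mark describe overlap with the main H2A.Z AP3 list, which the rule also used. Several rest on few genes, and region length was not matched between families.

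**Figure D5:**
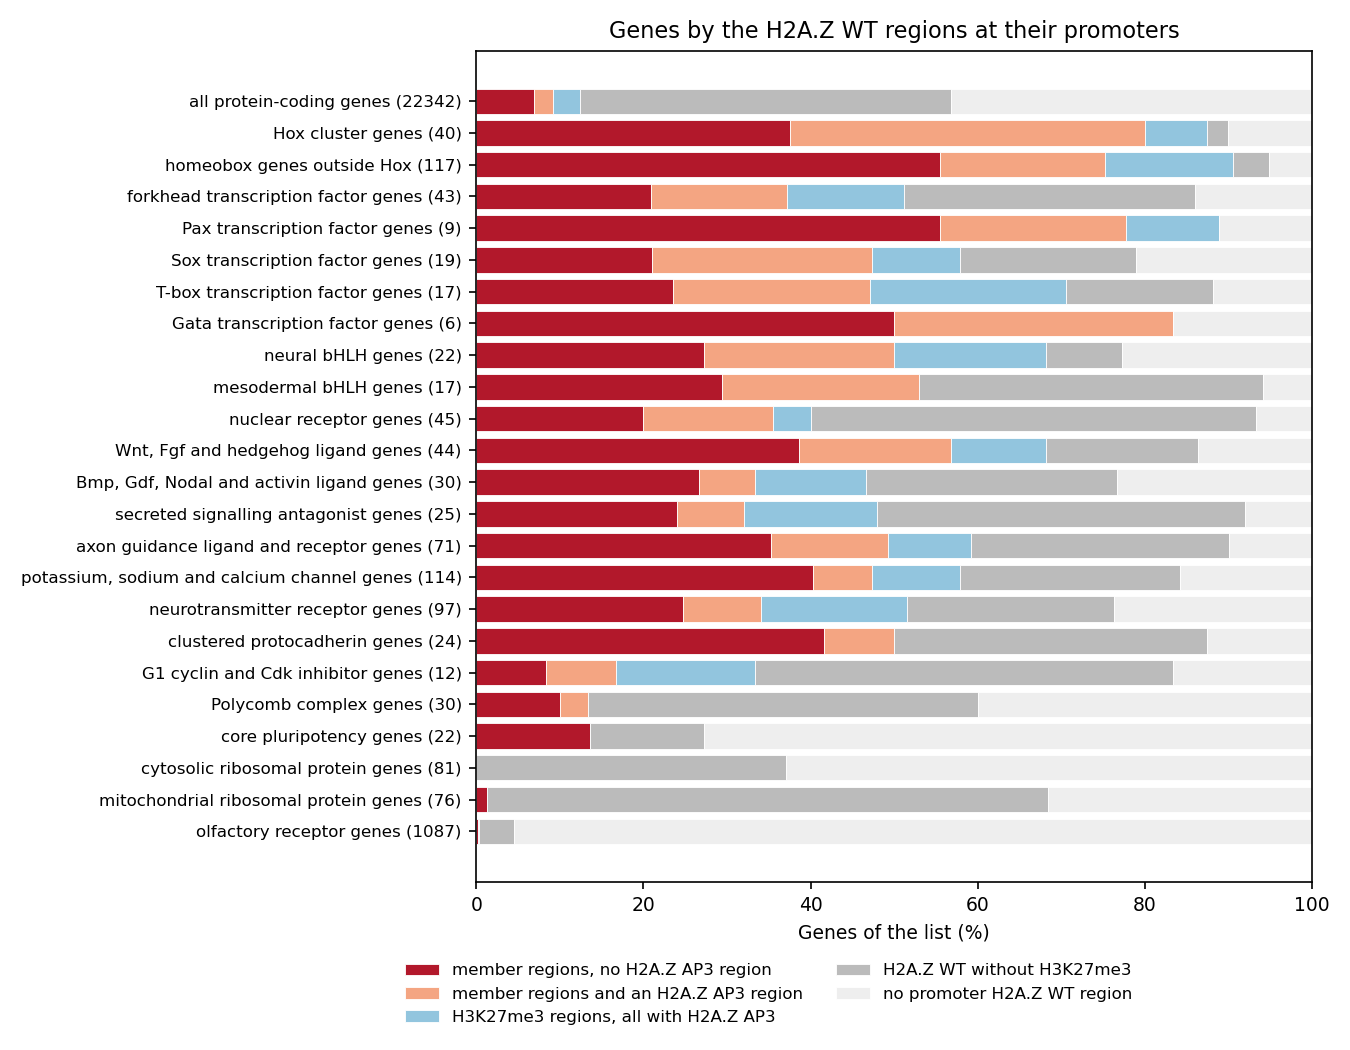
Genes of each list, with the number of genes in parentheses, as a percent of the list, by what their promoters held. Dark red are genes with members and no H2A.Z AP3 region. Orange are those with members and an H2A.Z AP3 region at the same or another start. Blue are those whose H3K27me3 regions all overlapped H2A.Z AP3. Homeobox lists reach 80.0% and 75.2% with members, against 9.11% of all genes.

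The Hox genes, which encode the homeodomain factors that pattern the body axis, had members at 32 of 40 genes. At 15 of these no promoter region overlapped H2A.Z AP3, and at 17 another did, so that 42.9% of the 35 Hox genes with the mark were free of the mutant. The HoxA cluster on chromosome 6 differed in make-up from the rest. It had 15 members of 7700 bp in all beside 15 H3K27me3 regions with the mutant of 14950 bp, and 2 of its 12 genes had members alone. In HoxC on chromosome 15, by contrast, 12 members covered 4550 bp and 2 regions with the mutant 700 bp, and 5 of 9 genes had members alone. HoxB and HoxD had 13 and 15 members beside 4 and 6 regions with the mutant. The HoxA values come with the chromosome 6 share given above, and the part that this plays was not tested.

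Several Hox genes had both members and regions with the mutant, counted over all their annotated starts. At Hoxd3, 4 members of 2125 bp lay entirely under H3K27me3, beside 1 region of 1100 bp with the mutant. At Hoxa9, 3 members of 1400 bp stood beside 3 regions of 2250 bp with the mutant. The promoter of Hoxa6 had a single member of 1325 bp (chr6:52158176-52159500) and no mutant region at the main threshold, but it overlapped a mutant region of the strict list.

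Homeobox genes outside the Hox clusters had members at 88 of 117 genes, of which 65 were free of the mutant, or 61.3% of the 106 with the mark. They included Otx2 and Lhx2 of the anterior brain, Cdx2 of the trophectoderm and Pdx1 of the pancreas. Nkx1-1 had 5 members of 2250 bp in all, wholly under H3K27me3, and the mutant was 52175 bp from the longest.

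In the Pax family of developmental transcription factors 7 of 9 genes had members. Of the 8 with the mark, 62.5% were free of the mutant. Pax2, which acts in kidney and eye, had the most members of any gene, 7 over its 5 annotated starts, covering 2550 bp entirely under H3K27me3 (from chr19:44830126-44830750 to chr19:44835901-44836500). The nearest H2A.Z AP3 region to them was 20625 bp away. Pax6, an eye regulator with 21 annotated starts, had 6 members of 3425 bp, but also 3 regions of 2650 bp with the mutant, as close as 825 bp. Pax3, a neural crest factor, had 2 members of 1250 bp, of which the longer had its midpoint 0.5 bp before the start.

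Among germ layer regulators, 5 of 6 Gata genes had members. Gata3, Gata5 and Gata6, 60.0% of the 5 with the mark, were free of the mutant, with 1500, 1575 and 1500 bp in members. At Gata4, a regulator of heart and endoderm, 2 members of only 100 bp lay beside a region of 2100 bp with the mutant. T, the mesoderm factor brachyury, had 2 members of 1550 bp with 1500 bp under H3K27me3, while Eomes and Tbx4 also had mutant regions. In the T-box family 4 of 12 genes with the mark, or 33.3%, were free of the mutant, and in the Sox family 4 of 11, or 36.4%. Sox17, an endoderm factor, had a member of 1150 bp wholly under H3K27me3 with the nearest mutant region 190875 bp away. Forkhead genes had members at 16 of 43 genes, and 40.9% of the 22 with the mark were free of the mutant. Foxd3 had a member of 1400 bp, only 50 bp of which carried the mark.

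Of the basic helix-loop-helix (bHLH) genes, those of the neural list had members at 11 of 22 and those of the mesodermal list at 9 of 17. Of those with the mark, 40.0% of 15 neural and 55.6% of 9 mesodermal genes were free of the mutant. The member of Bhlhe23, which acts in retinal interneurons, measured 2550 bp, and that of Hes5, a Notch target gene, 2250 bp. Myod1, the master regulator of skeletal muscle, had 2 members of 2350 bp in all, and the longer overlapped the strict mutant list. Neurog3 and Mesp1, of endocrine pancreas and early mesoderm, had 1 member each, of 1600 and 1300 bp, wholly under H3K27me3. Nuclear receptors had members at 16 of 45 genes. At Nr2e1, a receptor of neural stem cells, 3 members of 525, 150 and 275 bp sat in the longest H3K27me3 region that any member touched, 12550 bp (chr10:42296401-42308950), and none of these overlapped H2A.Z AP3.

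Secreted signals were also represented. The Wnt, Fgf and hedgehog ligands had members at 25 of 44 genes. Of the 30 with the mark, 17 or 56.7% were free of the mutant. Wnt7b had 4 members of 3050 bp with 3025 bp under H3K27me3, and Wnt10b had 5 members of 1975 bp. Fgf9 had 6 members of 2275 bp over 4 starts, all at least 179800 bp from a mutant region. Ligands of the Bmp, Gdf, Nodal and activin group had members at 10 of 30 genes, and secreted antagonists of these pathways at 8 of 25. Grem1, a Bmp antagonist, had 2 members of 1625 bp wholly under H3K27me3, and the nearest mutant region was 430350 bp away. Noggin (Nog) had 1 member of 1100 bp beside a region of 100 bp with the mutant.

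Genes for the differentiated nervous system were common among members. Potassium, sodium and calcium channel genes had members at 54 of 114 genes, and 46 of the 66 with the mark, or 69.7%, were free of the mutant. Kcnk13, a background potassium channel gene, had 1 member of 1975 bp wholly under H3K27me3, whereas Kcnt1 had 2 members of 2325 bp with 275 bp under it. Axon guidance genes had members at 35 of 71 genes, and 59.5% of the 42 with the mark were free of the mutant. Sema6a and Ntn1, with 2025 and 1650 bp in members, were free of it at the main threshold. The member of Sema6a overlapped a mutant region of the strict list. Sema6b had 2350 bp in members, with mutant regions besides. Neurotransmitter receptor genes had members at 33 of 97, and 48.0% of those with the mark were free of the mutant. The share free of the mutant thus ran from 48.0% to 69.7% over these lists, on either side of the 55.1% of all genes with the mark. Clustered protocadherin genes, which give neurons their surface identity, had members at 12 of 24. Of the 12 with the mark, 10 or 83.3% were free of the mutant. Their starts lie in tandem arrays, so a region may be assigned to a neighbour.

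Among the remaining lists, the ribosomal and olfactory receptor genes had a smaller share with members than the 9.11% of all genes, and the core pluripotency, Polycomb and cell cycle lists, at 13.6%, 13.3% and 16.7%, had a share somewhat above it that rests on 2 to 4 genes each. Of 22 core pluripotency genes 3 had members, Esrrb with 3 of 1075 bp in all, Prdm14 with 2 of 800 bp and Tbx3 with 1 of 300 bp, and none of them had a mutant region. The promoter of Pou5f1, which encodes Oct4, had no H2A.Z WT region. No member was found at 81 cytosolic ribosomal protein genes, of which 30 had an H2A.Z WT region without H3K27me3. There was 1 member at 76 mitochondrial ribosomal protein genes, at Mrpl23, and there were 2 at 1087 olfactory receptor genes. Of 30 Polycomb genes 4 had members, and the 2 members of Cbx8 lay wholly under H3K27me3. The cell cycle list of 12 genes had members at the Cdk inhibitor genes Cdkn1c, with 3 of 875 bp, and Cdkn2a, with 1 of 400 bp.

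The longest members were not mainly at these families. The longest of all, 3325 bp at the predicted gene Gm996 (chr2:25432376-25435700), had 3100 bp under H3K27me3 and 3275 bp in the strict H2A.Z WT list, and the mutant was 2000 bp away. Lrtm2, Mmp9 and Dok1 followed with 3250, 3100 and 2975 bp. Mmp9 encodes a matrix metalloproteinase, and its member carried H3K27me3 over 1025 bp and lay 46875 bp from the mutant. Dok1 encodes a docking protein of tyrosine kinase signalling, and 225 bp of its member overlapped the strict mutant list. At Lrtm2, Mmp9 and Dok1 H3K27me3 covered 1050, 1025 and 1200 bp, the smaller part of each region.

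The study also examined single promoters by ChIP and PCR. In its comparison of histone H3 variants it listed Zfpm2, Nagk and Thra as active and Hoxa11, Foxa2 and Bmp2 as bivalent. The region lists held these values for them. Zfpm2, a cofactor of Gata factors, had 2 members of 1575 bp with 975 bp under H3K27me3. Bmp2 had 1 member of 1200 bp (chr2:133378001-133379200), and the nearest H2A.Z AP3 region was 672200 bp away. Neither promoter had a region in the main mutant list. The paper reports the mutant at lower levels but at largely the same promoters, so a missing region does not show absence. At Hoxa11 a member of 800 bp, wholly under H3K27me3, lay beside a region of 400 bp with 125 bp of H2A.Z AP3. At Foxa2, an endoderm regulator, a member of 350 bp lay beside a region of 1275 bp that held 25 bp of H2A.Z AP3. Nagk and Thra had H2A.Z WT without H3K27me3 and without the mutant, so neither has a member.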

How the data were processed

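ChIP-Seq was measured in 3 libraries of mouse ESCs, and samples were grouped by their genotype and antibody labels. The authors aligned reads to mm9 with Bowtie 0.12.3. For H2A.Z they extended reads, allocated them to 25-bp bins and called enriched bins with a Poisson model and a minimal enrichment over input. The methods take H3K27me3 peaks from earlier work of the same group, and the calling of the H3K27me3 lists is not given in the sources used here. Their region edges lie on the same 25-bp grid. The deposited files hold only chromosome, start and end of each region, at thresholds named 1e-9 (main; the only threshold the methods state) and 1e-12 (strict). Heights, reads and depth are not given in the sources used here, and H3K27me3 antibody names differ between label and methods.

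Regions were classified by overlap of at least 1 bp and by midpoint distance to protein-coding starts of GENCODE vM1 (22342 genes), and were assigned to the nearest start. Genes on either side of a shared promoter therefore receive a region only at the nearer start. The steps recovered the members planted in simulated lists and matched bedtools 2.31.1. Sequences were printed only for members off chromosome 18. Shares carry 95% Wilson intervals. No test was run with 1 library per group. Python 3.11.15, pandas 2.3.3, SciPy 1.17.1, pysam 0.24.0 and Matplotlib 3.10.9 were used. Members, gene lists and comparisons were chosen with earlier results of these data known. Named genes were the 5 longest members, the 5 genes with most members, those with the longest H3K27me3, the most strict mutant bases or values at a limit of the rule, up to 4 per list by member bases, and those the study examined by PCR. Otx2, Lhx2, Cdx2 and Pdx1 were named after their values were seen, as examples. Some genes that this rule names are not reported here. Alternatives changed thresholds, overlap, window, starts, chromosomes, length and joining.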

Additional observations from a re-analysis of the deposited data

Results flagged for a closer look

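The strict H2A.Z AP3 list lay outside the definition of members, and 159 members overlapped a region of it. They belonged to 157 genes, and 25 of the 159, or 15.7%, were on chromosomes 6 and 8, against 7.02% of all members. Besides Htra4, Ccdc48 and Gpr84, the largest overlaps were 900 bp at Sh2d4a and 825 bp at Klhdc7b. A region called at 1e-12 and not at 1e-9 in the same library is not what a single threshold on the same bins would give, and the lists alone do not show how the 1e-12 list was made.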

How the results depend on the processing

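The number of members ranged from 1741 to 3416 over 14 alternatives and stayed within 1.5 times the main count in 13 of them. The exception was joining H2A.Z WT regions across gaps of 1 kb, which left 1741 members. The number of genes ranged from 1388 to 2199 and stayed within that margin in all 14. The share of H3K27me3 promoter regions without H2A.Z AP3, 70.4%, left its interval in 9 of 14. It rose to 76.1% with the strict lists for all libraries, 75.7% with the strict list for the mutant alone, 74.2% without chromosomes 6 and 8, 73.0% where H3K27me3 had to cover at least 50% of the region and 72.2% with a window of 5 kb. It fell to 67.8% with a window of 1 kb, 66.3% with both mutant lists combined, 60.0% where a mutant region within 1 kb counted as present and 58.3% with joined regions. The median length of members, the share held in the strict wild-type list and the share downstream each kept within their intervals in 5 of 6 alternatives. Asking H3K27me3 to cover at least 50% gave 450 bp and 87.7% for the first pair, and using the most upstream start of each gene gave 71.3% downstream. Depth, which was unknown, limits any statement that the mutant was absent. No paired analysis was possible because each group has 1 library.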
